A study of Mus musculus with 2 samples.

Results

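The comparison is between wild-type (WT) mice and mice that lack the chemokine receptor gene Ccr2 (CCR2KO), in silica-treated lungs, within the third block of hashtags. A hashtag is an antibody with a DNA barcode that marks 1 cell suspension before suspensions are pooled, and each marked suspension is called a tag here. The members are the cells of WT tags A0307, A0308 and A0309 and of CCR2KO tags A0307 and A0308, which is every tag of the block. A cell was kept if it had 200 or more detected genes and no more than 25% of its reads from mitochondrial genes, and the reads of kept cells were summed per tag. The block held 8838 of the 32445 cells of the series, 5353 from WT and 3485 from CCR2KO, in 5 of its 17 tags. All mice were on the C57BL/6 strain, and the knockouts carry the genotype CCR2-/- with no cell type restriction stated. Every mouse had received silica into the trachea at 400 mg/kg, so no untreated lung enters the comparison. Lungs were collected on days 3, 7 and 21, and the day of a tag is not given in the sources used here. Age, pooling of animals and whether a tag is 1 animal are not given either, so p-values measure the spread between tagged suspensions. Each genotype was run as 1 library on its own cartridge, so genotype and cartridge cannot be told apart.

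CCR2 is the receptor for CCL2 and related chemokines. Monocytes use it to leave the bone marrow and to enter inflamed tissue, where they can become macrophages. Inhaled silica crystals are taken up by lung macrophages, damage their lysosomes and drive interleukin-1 release, neutrophil entry and, later, scarring. Alveolar type 2 cells make surfactant and renew the alveolar epithelium after injury.

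The WT tags kept 62519503 to 70092175 reads each, and the CCR2KO tags kept 55677280 and 69411471. The median cell held 21149 to 23947.5 reads in WT tags and 20394 and 20849 in CCR2KO tags. Fewer genes were detected per CCR2KO cell. At an equal depth of 5000 reads a cell showed 817 ± 16.2 genes in WT (SD, n = 3) and 715 ± 18.3 in CCR2KO (SD, n = 2), and the tags did not overlap. The two-sided exact permutation p was 0.2, the smallest that 3 against 2 tags allow. This gap in detected genes moves with genotype in every gene result below, and its part in them was not tested. The libraries shared 13 cell barcodes in the third block.

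Ccr2 itself was lower in both CCR2KO tags, and its chromosomal neighbours and its ligands were mostly not. Over all cells Ccr2 stood at 63.6, 67.5 and 73.2 CPM in the WT tags, where CPM are counts scaled to the same total in every tag, and at 2.101 and 2.70 CPM in the CCR2KO tags. Every WT tag was far above both CCR2KO tags. The fall was 28.3-fold (log2 change -4.82, SE 0.43, adjusted p = 1.72e-05 by edgeR's quasi-likelihood test with Benjamini-Hochberg adjustment over 22389 genes), and the call held with each tag left out in turn. Which exons were deleted and which part of the gene the reads cover are not given in the sources used here. The remaining reads were placed by cell. Of monocyte-like cells 210 of 332 had a Ccr2 read in WT (63.3%) and 4 of 44 in CCR2KO (9.09%). This population has markers of both classical and nonclassical monocytes. Its median cell held 28874 reads in WT and 18361.5 in CCR2KO. In B cell-like cells, where the receptor is not expected, a read was found in 6 of 188 WT cells (3.19%) and 1 of 224 CCR2KO cells (0.446%), with medians of 10866 and 9976.5 reads per cell. In interstitial macrophage-like cells 52 of 107 WT cells (48.6%) and 0 of 38 CCR2KO cells had a read, and a count of 0 there allows a share of up to 7.89%. Of T cell-like cells 6 of 173 had a Ccr2 read in CCR2KO (3.47%).

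Ccr2 lies in a cluster of chemokine receptor genes on chromosome 9. Of 11 neighbours tested, 3 were lower and 0 higher in CCR2KO, with a median log2 change of -0.01. Over all 22389 genes tested 2.71% were called lower and 1.18% higher, and the median log2 change was -0.01. Among the 3 were Ccrl2 (log2 change -0.88), which binds chemerin, and Ccr1 (-0.79), a chemokine receptor of myeloid cells. The calls of both were lost without CCR2KO tag A0307 (adjusted p = 0.0664 and 0.166), and that of Ccr1 also without WT tag A0309 (0.0566). The 4 genes for CCR2 ligands, Ccl2, Ccl7, Ccl8 and Ccl12, had log2 changes between -0.57 and 0.08 over all cells, none of them called.

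The cell make-up differed between the genotypes in 10 of 27 populations tested (37.0%), 5 fewer and 5 more frequent in CCR2KO. Populations are clusters of both libraries named by likeness from marker genes. Their cell numbers, relative to all cells of a tag, were compared by edgeR's quasi-likelihood test with Benjamini-Hochberg adjustment. Such shares are tied to one another, so a fall in some populations raises the shares of others. Monocyte-like cells were led by genes that include Ifitm6, Gm9733, Ms4a4c, Clec4a1, Plac8, Ccr2 and Adgre4. Their cluster matched 7 classical and 5 nonclassical monocyte markers, so it was not separated into these kinds. Monocyte-like cells made up 6.40%, 5.47% and 7.17% of the cells in the WT tags and 0.927% and 1.62% in the CCR2KO tags. The mean fell from 6.35 ± 0.856% (SD, n = 3) to 1.27 ± 0.487% (SD, n = 2), a 4.99-fold fall (log2 change -2.30, SE 0.29, adjusted p = 4.12e-09). Macrophages led by Mmp12, Inhba, Gpnmb and Ccl24 were 1.18%, 2.34% and 1.20% of WT cells and 0.0618% and 0.334% of CCR2KO cells (log2 change -2.91, SE 0.53, adjusted p = 1.60e-05). In cell numbers these were 19, 42 and 22 against 1 and 6. Neither population's tags overlapped between genotypes. Clustering again without the 871 genes called over all cells gave log2 changes of -2.15 (adjusted p = 7.58e-10) for monocyte-like and -2.76 (adjusted p = 9.55e-05) for Mmp12 Gpnmb macrophage-like cells.

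Other myeloid populations gave smaller or less even differences. Interstitial macrophage-like cells, which carry complement C1q, were 2.05%, 2.57% and 1.53% in WT and 1.42% and 0.836% in CCR2KO (log2 change -0.87, adjusted p = 0.0497). That call was lost when the genes called over all cells were left out of the clustering (adjusted p = 0.0947) and without CCR2KO tag A0308 (0.384), WT tag A0307 (0.0588) or WT tag A0308 (0.170). Mature dendritic cell-like cells, which carry antigen to lymph nodes, were 1.12%, 1.00% and 0.548% in WT and 0.433% and 0.279% in CCR2KO (log2 change -1.31, adjusted p = 0.0497), a call that held only without WT tag A0309. Neutrophil-like cells were 4.91%, 11.5% and 11.2% in WT and 6.24% and 5.74% in CCR2KO. The WT tag A0307 lay below both CCR2KO tags, so the groups overlapped, and the fitted fall (log2 change -0.62, adjusted p = 0.0385) remained a call only without that tag. Alveolar macrophage-like cells, the resident macrophages of the airspace, were 3.23% in WT and 3.19% in CCR2KO on average (adjusted p = 0.944).

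More frequent in CCR2KO were epithelial, lymphoid and lining cells. Alveolar type 2-like cells were 6.15%, 5.19% and 5.15% of WT cells and 10.4% and 10.9% of CCR2KO cells (log2 change 0.96, SE 0.20, adjusted p = 8.59e-05). B cell-like cells rose from 3.42%, 3.01% and 4.33% to 5.44% and 7.58% (log2 change 0.86, adjusted p = 0.00413). T cell-like cells rose from 3.36%, 3.01% and 2.57% to 4.57% and 5.52% (log2 change 0.76, adjusted p = 0.00481). The tags of each of these populations did not overlap between genotypes, but the calls for B and T cells were lost without CCR2KO tag A0308 (adjusted p = 0.184 and 0.144). Mesothelial-like cells, which line the lung surface, were 1 of 5228 WT cells and 23 of 3413 CCR2KO cells (adjusted p = 4.56e-05). Cluster 15, an unnamed cluster led by the acute phase genes Saa1 and Saa3 with Mt2, Cxcl14 and Il6, was 2.98%, 3.07% and 3.01% in WT and 6.00% and 3.84% in CCR2KO (log2 change 0.70, adjusted p = 0.0385), a call that held only without CCR2KO tag A0308, and without CCR2KO tag A0307 its adjusted p was 0.475. Alveolar type 1-like cells, the thin gas-exchange cells, did not pass the test (log2 change 0.61, adjusted p = 0.0719). The number of populations called was 5 without CCR2KO tag A0308 and 6 without WT tag A0308, and monocyte-like, Mmp12 Gpnmb macrophage-like, mesothelial-like and alveolar type 2-like cells were called with any of the 5 tags left out.

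**Figure D1:**
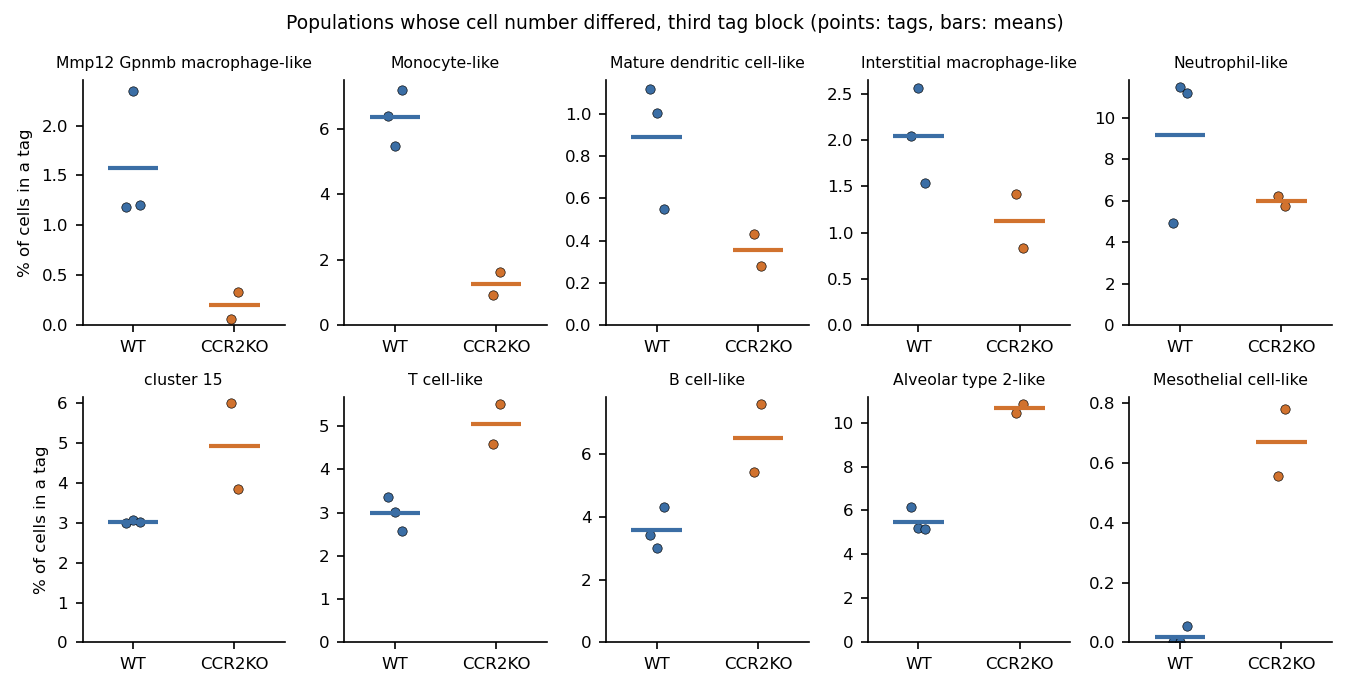
Share of cells per tag (vertical axis, percent) for the 10 populations whose share differed between WT (3 points) and CCR2KO (2 points). Horizontal bars are means. Monocyte-like cells stand between 5.47% and 7.17% in WT and at 0.927% and 1.62% in CCR2KO, while 1 WT tag of neutrophil-like cells (4.91%) lies below both CCR2KO tags.

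Summed over all cells, 871 of 22389 genes tested differed (3.89%), 264 higher and 607 lower in CCR2KO. Such sums follow the cell make-up: fewer cells of a type and less RNA per cell cannot be told apart in them. Leaving out CCR2KO tag A0307 left 293 called genes and leaving out WT tag A0309 left 518. Of 85 named genes called over all cells, 32 were called with each of the 5 tags left out in turn. Of 6853 genes with a mean of at least 20 CPM, 9.44% were called and 40.7% did not overlap between the genotypes, so a lack of overlap alone is common in this block. When monocyte-like and Mmp12 Gpnmb macrophage-like cells were left out of the sums, a setting added after seeing the data, 403 genes were called, 389 of them among the 871.

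Genes of classical monocytes, the inflammatory monocytes that depend on CCR2, were lower in most cases. Of 10 such genes 6 were lower and 0 higher, with a median log2 change of -1.29, and 1 of the 6 is the deleted gene Ccr2 itself. Ms4a4c, a membrane protein of monocytes, stood at 54.1, 52.2 and 60.2 CPM in WT and at 6.77 and 7.51 CPM in CCR2KO (log2 change -2.96, SE 0.32, adjusted p = 9.18e-05). Plac8, a cytosolic protein of myeloid cells, stood at 483, 509 and 602 CPM against 210.1 and 264 CPM (log2 change -1.16, adjusted p = 4.42e-04). Both genes had no overlap and were called with each tag left out. F13a1, which encodes clotting factor XIII A, was at 101.1, 111 and 139 CPM in WT and at 37.5 and 7.98 CPM in CCR2KO (log2 change -2.37, adjusted p = 0.0344), and its call was lost without CCR2KO tag A0308 (adjusted p = 0.188) or either of WT tags A0308 and A0309. Ly6c2, the classical monocyte surface marker, fell by 1.41 on the log2 scale (adjusted p = 0.00257). Of 10 genes of nonclassical monocytes, which patrol vessels, only Nr4a1 was called, and it was higher. Nr4a1, a nuclear receptor that these monocytes need and an immediate early gene in most cells, was at 330, 311 and 343 CPM in WT and 436 and 420 CPM in CCR2KO (log2 change 0.38, adjusted p = 0.00228).

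Macrophage genes fell in part. Of 12 interstitial macrophage genes 4 were lower, among them Stab1, Ms4a7 and Pf4, and 0 higher, and all 12 had negative log2 changes (median -0.56). With either CCR2KO tag left out, 2 of them were called. Ms4a7, a membrane protein of macrophages, stood at 33.0, 21.8 and 20.4 CPM in WT and 10.2 and 8.25 CPM in CCR2KO (log2 change -1.45, SE 0.29, adjusted p = 0.00856). Its groups did not overlap, and its call was lost without CCR2KO tag A0307 (adjusted p = 0.0642) or A0308 (0.104). Without monocyte-like and Mmp12 Gpnmb macrophage-like cells Ms4a7 fell by 1.47 on the log2 scale (adjusted p = 0.0335). Of 20 genes of scar-associated macrophages 3 were lower, Trem2, Arg1 and Ccl24, with 0 called when either CCR2KO tag was left out and 1 without WT tag A0308. Arg1, the arginase of alternatively activated macrophages, was at 41.7, 110.9 and 77.1 CPM in WT and 10.6 and 16.5 CPM in CCR2KO (log2 change -2.50, SE 0.56, adjusted p = 0.0190). Its WT tags spread more than 2-fold, and the call was lost without CCR2KO tag A0307 (adjusted p = 0.201), CCR2KO tag A0308 (0.0762) or WT tag A0308 (0.0587). Ccl24, an eosinophil-attracting chemokine, was at 7.49, 47.1 and 45.7 CPM against 4.03 and 2.31 CPM (log2 change -3.40, adjusted p = 0.0321), and its call held only without WT tag A0307. Of the WT reads of Arg1 60.0% lay in interstitial macrophage-like cells and 22.1% in Mmp12 Gpnmb macrophage-like cells, and of the WT reads of Ccl24 52.5% lay in the latter. None of 12 alveolar macrophage genes was called (median log2 change -0.16).

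**Figure D2:**
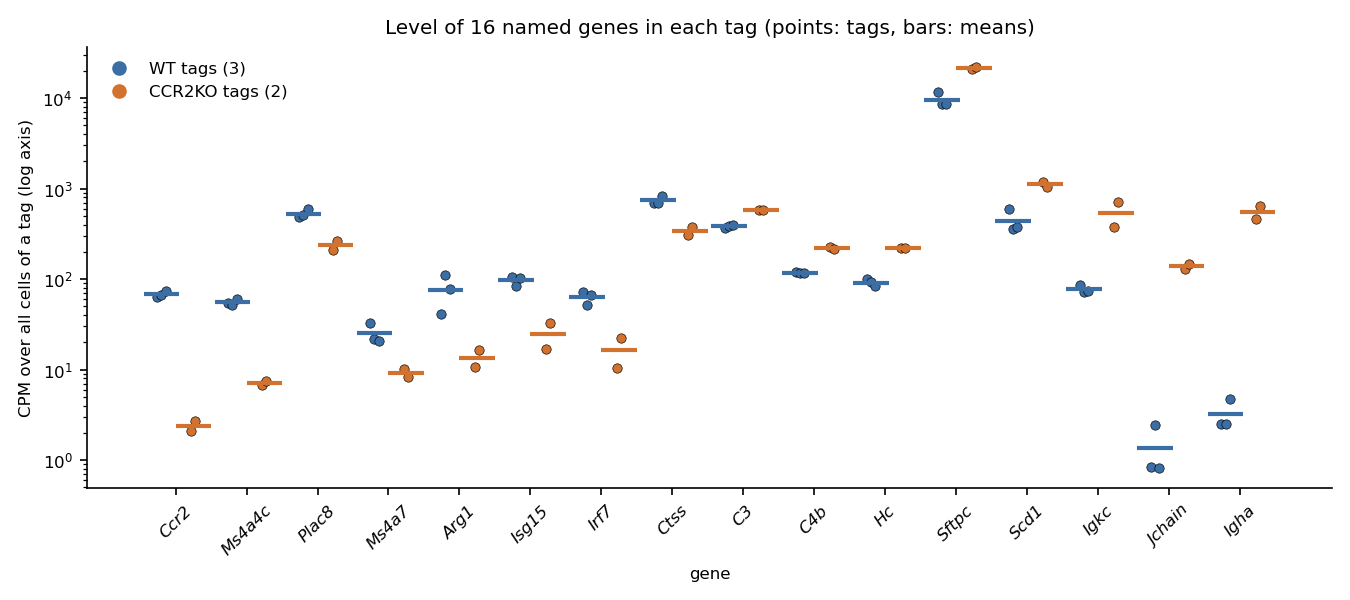
Level over all cells of a tag (vertical log axis, CPM) of 16 named genes in the 3 WT tags and the 2 CCR2KO tags; points are tags and bars are means. Ccr2 falls from 63.6 to 73.2 CPM in WT to 2.101 and 2.70 CPM in CCR2KO, and Igha rises from at most 4.77 CPM to 461 and 636 CPM.

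Genes of the type I interferon response formed the broadest group of lower genes among the 42 lists. Type I interferons act through a shared cell surface receptor to switch on antiviral genes. Of 25 such genes 17 were lower and 0 higher, all 25 had negative log2 changes, and the median was -1.29. Their summed level was 1495 to 1959 CPM in WT tags and 785 to 1057 CPM in CCR2KO tags. Isg15, a ubiquitin-like modifier, stood at 106.5, 83.6 and 102.0 CPM in WT and at 16.8 and 32.4 CPM in CCR2KO (log2 change -1.98, SE 0.28, adjusted p = 7.90e-04). Irf7, the transcription factor that amplifies interferon production, stood at 72.1, 51.3 and 67.0 CPM against 10.5 and 22.4 CPM (log2 change -1.94, SE 0.26, adjusted p = 4.35e-04). Ifi204, a DNA sensor of the HIN200 family whose close paralogs may share reads, stood at 57.3, 53.1 and 73.7 CPM against 15.0 and 12.9 CPM (log2 change -2.14, SE 0.28, adjusted p = 3.91e-04). None of these genes overlapped between genotypes, and each was called with any tag left out. Rsad2, the antiviral enzyme viperin, was at 41.6, 44.5 and 58.7 CPM against 5.02 and 10.1 CPM (log2 change -2.67, SE 0.47, adjusted p = 0.00347), and without CCR2KO tag A0307 its adjusted p was 0.0787. Of the 25 genes, 5 were called lower without CCR2KO tag A0307, 11 without WT tag A0309, and 15 or 16 without each of the others.

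Of the WT reads of Isg15, 12.9% came from neutrophil-like, 12.5% from monocyte-like and 12.2% from activated fibroblast-like cells. Without monocyte-like and Mmp12 Gpnmb macrophage-like cells 10 of the 25 genes were called lower, with a median log2 change of -1.02. Over all genes tested in that setting 264 were called lower and 139 higher. Isg15 then changed by -1.81 (adjusted p = 0.00267), Irf7 by -1.73 and Rsad2 by -2.37 (adjusted p = 0.0205) on the log2 scale. In the same sums 3 of 10 classical monocyte genes were called, Ccr2 itself among them, with a median of -0.43, and the difference between the lists was not tested. Within single populations 0 of the 25 genes was called in monocyte-like, alveolar type 2-like and alveolar fibroblast-like cells, 1 in alveolar macrophage-like and 2 in interstitial macrophage-like cells. The medians there were -2.69, -1.21, -0.55, -1.44 and -0.81, beside medians over all genes tested of -1.08, 0.00, -0.03, -0.04 and -0.32.

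**Figure D3:**
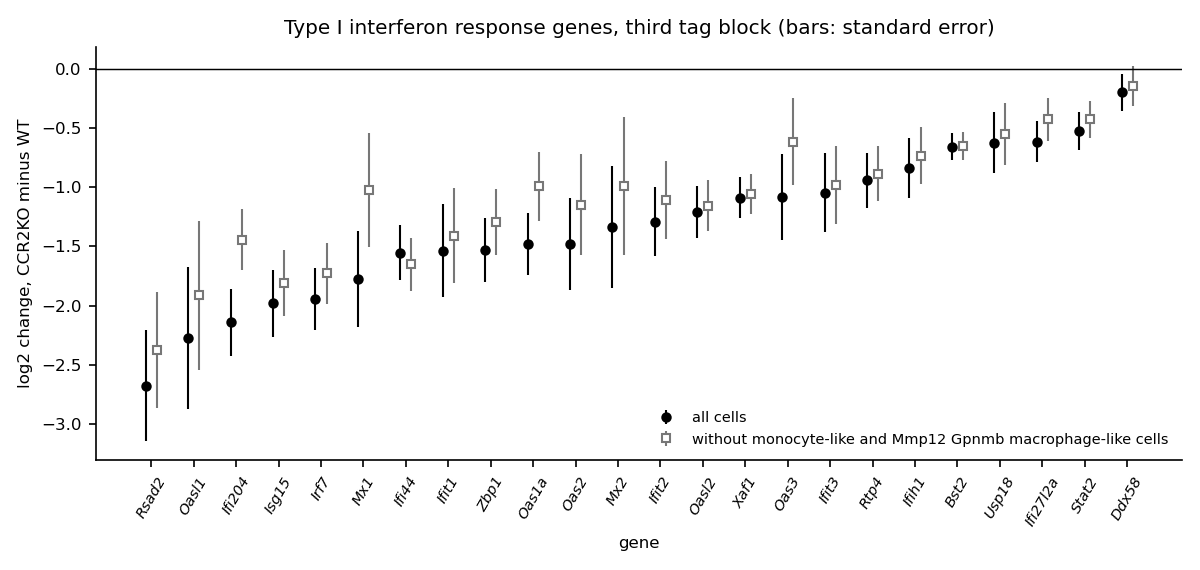
Log2 change of CCR2KO against WT (vertical axis) of 24 of the 25 type I interferon response genes over all cells (filled points) and without monocyte-like and Mmp12 Gpnmb macrophage-like cells (open squares); bars are standard errors. Every filled point lies below 0, with Rsad2 at -2.67.

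The promoters of Isg15 and Rsad2 are shown because these genes moved together and hold a core that interferon-activated factors are known to bind. The sequences are the 250 bases before the start of each gene from RefSeq (GRCm38.p6), written 5′ to 3′ on the gene's strand. Capitals mark matches to GAAA, any 2 bases and GAAA again, searched on both strands with overlaps allowed.
Isg15, chr4:156200819-156201068, minus strand: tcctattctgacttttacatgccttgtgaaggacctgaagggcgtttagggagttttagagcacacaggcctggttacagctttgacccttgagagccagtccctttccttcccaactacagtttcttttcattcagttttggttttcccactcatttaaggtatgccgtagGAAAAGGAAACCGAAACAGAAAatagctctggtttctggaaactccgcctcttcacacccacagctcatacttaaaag
Rsad2, chr12:26456453-26456702, minus strand: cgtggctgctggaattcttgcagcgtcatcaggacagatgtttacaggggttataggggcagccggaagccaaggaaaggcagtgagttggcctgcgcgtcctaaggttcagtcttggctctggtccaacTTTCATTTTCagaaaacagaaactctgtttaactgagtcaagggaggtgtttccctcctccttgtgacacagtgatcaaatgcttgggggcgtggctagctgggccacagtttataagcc
Isg15 holds 3 overlapping matches, the farthest beginning 78 bases before the start and the nearest 66. Rsad2 holds 1 match on the opposite strand, at 120 bases before the start. In windows of 250 bases before to 50 after the start, 5 of the 11 lower interferon genes found in the table held a match (45.5%), as did 5 of 5 list members that were not called and 626 of 15805 tested genes (3.96%). The window of Irf7 held no match.

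Few genes that load and cut antigen were called. Of 25 genes of the interferon gamma response and MHC class I, 5 were lower and 0 higher, with a median log2 change of -0.28. That count was 1 without CCR2KO tag A0307 or WT tag A0307 and 3 without WT tag A0309. B2m, the light chain of MHC class I, stood at 3943, 3814 and 3855 CPM in WT and 2798 and 2954 CPM in CCR2KO (log2 change -0.43, SE 0.05, adjusted p = 9.57e-05), and every WT tag was above both CCR2KO tags. The immunoproteasome subunits Psmb9 (log2 change -0.63) and Psmb8 (-0.45) were also lower, and both calls were lost without CCR2KO tag A0307 (adjusted p = 0.138 and 0.286) or WT tag A0307 (0.0624 and 0.0620). That of Psmb9 was also lost without CCR2KO tag A0308 (0.116) and that of Psmb8 without WT tag A0308 (0.0811). Ctss, the protease that frees MHC class II for peptide, was at 703, 693 and 825 CPM against 306.8 and 377 CPM (log2 change -1.11, SE 0.14, adjusted p = 2.11e-04). None of 10 MHC class II genes was called (median log2 change -0.38). Ctsh, a cathepsin that processes surfactant protein, went the other way, with 373, 347 and 279 CPM in WT and 545 and 530 CPM in CCR2KO (log2 change 0.69, adjusted p = 0.00208).

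Inflammasome and chemokine lists held called genes in both directions. Of 16 genes of the inflammasome and the interleukin-1 family 4 were lower and 1 higher. The lower ones numbered 0 without CCR2KO tag A0307 and 2 without WT tag A0308 or A0309. Il1b, the inflammasome's main cytokine, was at 296, 376 and 366 CPM in WT and 185 and 201 CPM in CCR2KO (log2 change -0.84, adjusted p = 0.00363). Nlrp3, the sensor, fell by 1.27 on the log2 scale (adjusted p = 0.00283) and its adaptor Pycard by 0.77 (adjusted p = 0.0252). Without CCR2KO tag A0307 the adjusted p was 0.0754 for Il1b, 0.0766 for Nlrp3 and 0.279 for Pycard. The adjusted p of Pycard was also 0.0574 and 0.0909 without WT tags A0308 and A0309. Once monocyte-like and Mmp12 Gpnmb macrophage-like cells were left out, Il1b did not pass the test (log2 change -0.51, adjusted p = 0.121) and Nlrp3 did (-1.07, adjusted p = 0.0302). The receptor gene Il1r1 was higher (log2 change 0.69, adjusted p = 0.0326), a call lost without CCR2KO tag A0307 (0.301), WT tag A0307 (0.102) or WT tag A0309 (0.0633). Of 10 inflammatory CC chemokine genes 3 were lower (Ccl9, Ccl4 and Ccl24) and 0 higher, with 0 called without CCR2KO tag A0307 and 1 without CCR2KO tag A0308 or WT tag A0309. Ccl9, a CC chemokine of macrophages, stood at 241, 226 and 219 CPM against 72.8 and 81.0 CPM (log2 change -1.57, adjusted p = 0.00282, and 0.0623 without CCR2KO tag A0307). Of 10 neutrophil-attracting chemokine genes 1 was higher, Cxcl15, and 1 lower, Pf4. Cxcl15, a chemokine of the mouse lung epithelium, was at 1709.9, 1192 and 1191 CPM in WT and 2375 and 3068 CPM in CCR2KO, with no overlap (log2 change 1.00, adjusted p = 0.00699, and 0.0927 without CCR2KO tag A0308). Pf4 fell by 1.10 on the log2 scale (adjusted p = 0.0454), a call that held only without CCR2KO tag A0307. Of 11 scavenger receptor genes, which include silica-binding receptors of macrophages, 4 were lower, among them Clec7a (log2 change -0.80), the beta-glucan receptor, and Msr1 (-0.95), with adjusted p of 0.0525 and 0.160 without CCR2KO tag A0307. Without that tag 0 of the 11 were called.

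Of 17 genes of the TGF-beta and activin axis 1 was higher (Itgb6) and 2 lower (Tgfb1 and Tgfbi), with a median log2 change of -0.10. Itgb6 was not called without WT tag A0309 or CCR2KO tag A0307 (adjusted p = 0.0806 and 0.168), and Tgfbi was not called without either of these or WT tag A0308 (0.0796, 0.270 and 0.0512). Tgfb1, the main growth factor of fibrosis, stood at 89.0, 89.6 and 106 CPM in WT and 50.6 and 55.6 CPM in CCR2KO (log2 change -0.84, SE 0.12, adjusted p = 8.27e-04). Osm, an interleukin-6 family cytokine of myeloid cells, stood at 63.4, 61.0 and 63.6 CPM against 28.1 and 33.6 CPM (log2 change -1.02, SE 0.15, adjusted p = 0.00115). Neither gene overlapped, and both were called with any tag left out, but Osm was not called without monocyte-like and Mmp12 Gpnmb macrophage-like cells (log2 change -0.39, adjusted p = 0.385). Lif, another cytokine of that family, was higher in CCR2KO, at 44.0 and 34.8 CPM against 11.5, 11.8 and 23.7 CPM in WT (log2 change 1.33, adjusted p = 0.00872, and 0.107 without CCR2KO tag A0307). Of the CCR2KO reads of Lif 33.8% came from cluster 15. Among 14 metalloproteinase and inhibitor genes 3 were lower and 0 higher: Mmp8, the neutrophil collagenase (log2 change -1.38), Adam8 (-0.95) and Mmp19 (-0.94, with an adjusted p of 0.106 without CCR2KO tag A0307). Of 24 genes of interstitial collagens and matrix 3 were higher and 0 lower, with a median log2 change of 0.10. These were Fbln1 (log2 change 0.67), Col6a1 (0.49) and Col6a3 (0.47), and each lost its call without CCR2KO tag A0307 (adjusted p = 0.115, 0.315 and 0.221). Without WT tag A0308 or A0309 only Fbln1 was called, and Col6a3 was also lost without CCR2KO tag A0308 (0.0988).

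Surfactant and alveolar type 2 genes were the broadest group of higher genes. Of 14 such genes 13 were higher and 0 lower, with a median log2 change of 1.04. Their summed level was 15809 to 21727 CPM in WT tags and 35163 to 37864 CPM in CCR2KO tags. Sftpc, the surfactant protein C gene, stood at 11668, 8578 and 8573 CPM in WT and 20890.0 and 22093 CPM in CCR2KO, a 2.24-fold rise (log2 change 1.16, SE 0.19, adjusted p = 0.00223) that was called with any tag left out. Scd1, a desaturase for surfactant lipid, was at 591, 356 and 375 CPM against 1187 and 1051 CPM (log2 change 1.34, adjusted p = 0.0121), a call lost without CCR2KO tag A0307 (0.1002), WT tag A0308 (0.0524) or WT tag A0309 (0.0581). Alveolar type 2-like cells held 91.5% of WT and 93.7% of CCR2KO reads of Sftpc. The 13 calls became 7 with either CCR2KO tag left out and 9 to 12 with a WT tag left out. Within alveolar type 2-like cells 0 of the 14 genes was called, with a median log2 change of 0.15. The list's exception over all cells was Lyz1 (log2 change -0.00).

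Other epithelial lists were higher in part. Of 10 alveolar type 1 genes 2 were higher, the water channel gene Aqp5 and the tight junction gene Cldn18, and 1 was when either CCR2KO tag was left out. Aqp5 stood at 64.5, 92.6 and 70.0 CPM in WT and 155 and 161 CPM in CCR2KO (log2 change 1.06, SE 0.17, adjusted p = 0.00215), with no overlap and with a call whichever tag was left out. Of 15 genes of injured alveolar epithelium 3 were higher and 1 lower. The higher ones numbered 0 without WT tag A0309, 4 without WT tag A0308 and 1 without each of the others. Krt8, a keratin of the transitional state between type 2 and type 1 cells, was at 122, 174 and 77.0 CPM against 209.6 and 270.3 CPM (log2 change 0.95, adjusted p = 0.0361), and its call held only without WT tag A0308. Cdkn1a, the p21 cell cycle inhibitor, was the lower one, at 474, 544 and 522 CPM against 352 and 337 CPM (log2 change -0.58, adjusted p = 4.42e-04). None of 10 airway epithelial genes was called. Scgb1a1, the club cell secretory protein, was at 8189, 11027 and 11438 CPM in WT and at 4610 and 17551 CPM in CCR2KO, so that the CCR2KO tags lay on either side of WT.

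Complement genes were called in both directions. Of 15 tested 5 were higher, among them C3, C4b, Hc and C2, and 3 lower (Cfp, C3ar1 and C5ar1). Without CCR2KO tag A0307 the counts were 2 higher and 0 lower, and without WT tag A0308 or A0309 3 genes were higher. Without CCR2KO tag A0308 they were 8 higher and 2 lower. C3, the central component, stood at 364, 390 and 392 CPM in WT and 579 and 574 CPM in CCR2KO (log2 change 0.59, SE 0.07, adjusted p = 1.12e-04). C4b stood at 119, 116 and 117 CPM against 226 and 214 CPM (log2 change 0.91, SE 0.11, adjusted p = 1.47e-04). Both were apart in all tags and called with any tag left out. Hc, which encodes C5, was at 99.3, 91.8 and 83.5 CPM against 219.8 and 222.5 CPM (log2 change 1.27, SE 0.25, adjusted p = 0.00715, and 0.0557 without CCR2KO tag A0307), and 89.8% of its WT and 92.0% of its CCR2KO reads lay in alveolar type 2-like cells. Of the WT reads of C3 31.5% lay in alveolar fibroblast-like and 28.1% in adventitial fibroblast-like cells. The lower ones encode properdin (Cfp, log2 change -1.03) and the receptors for C3a (C3ar1, -1.36) and C5a (C5ar1, -1.05), and these 3 calls were lost without CCR2KO tag A0307 (adjusted p = 0.103, 0.144 and 0.123), that of C5ar1 also without CCR2KO tag A0308 (0.0591).

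**Figure D4:**
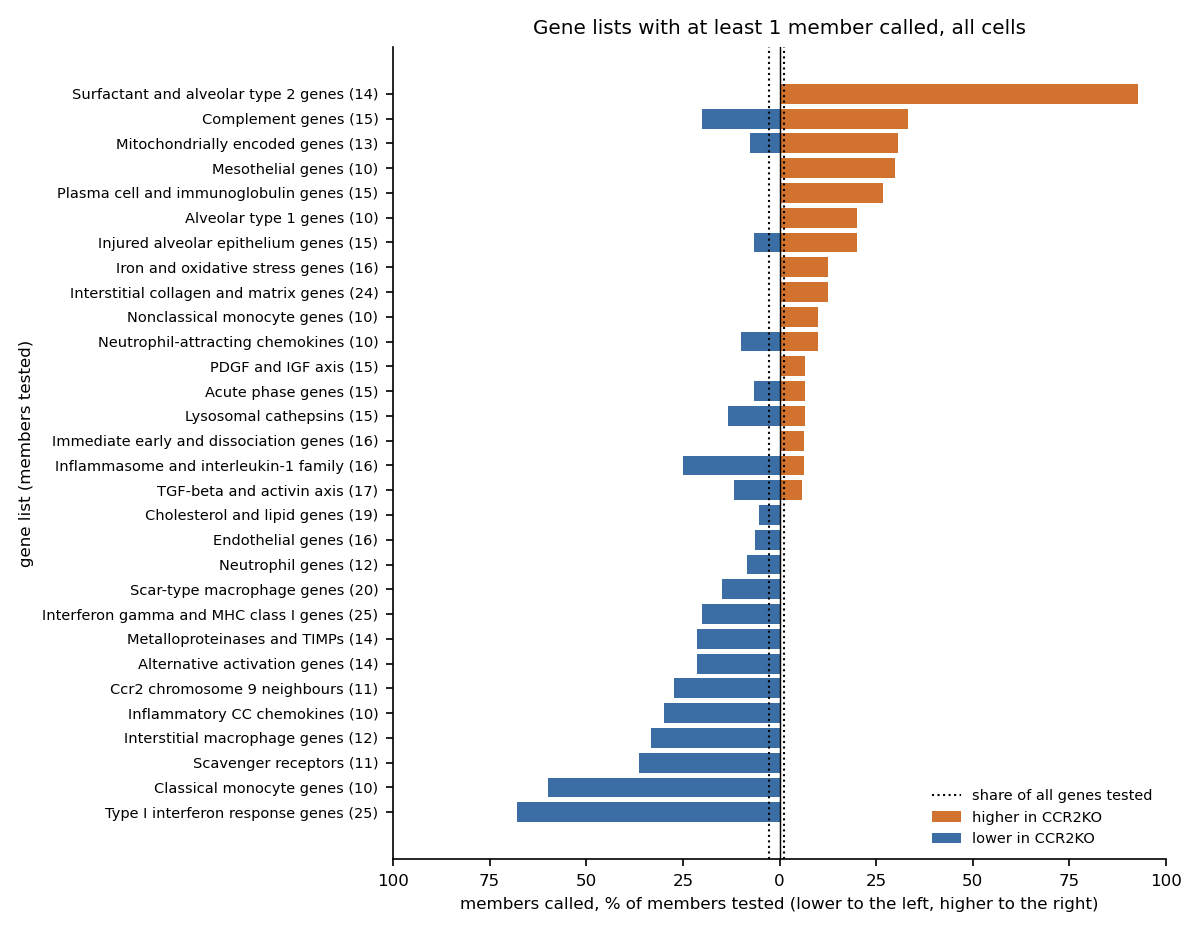
Share of tested members called higher (right) or lower (left) in CCR2KO for each gene list with at least 1 called member (horizontal axis, percent of members tested, number tested in brackets); dotted lines mark 1.18% and 2.71%, the shares over all genes tested. Surfactant and alveolar type 2 genes (13 of 14 higher) and type I interferon response genes (17 of 25 lower) stand farthest from the lines.

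Some antibody genes rose, and few cells held most of the CCR2KO reads of Igha and Iglc1. Of 15 plasma cell and immunoglobulin genes 4 were higher and 0 lower. Igha, the heavy chain of IgA, stood at 2.49, 2.50 and 4.77 CPM in WT and 461 and 636 CPM in CCR2KO (log2 change 7.40, SE 1.46, adjusted p = 0.00812). Jchain, which joins IgA units, stood at 0.841, 2.44 and 0.809 CPM against 129 and 148 CPM (log2 change 6.65, SE 0.88, adjusted p = 3.91e-04). Both genes were called with any tag left out. Plasma cell-like cells numbered 1 and 3 in the CCR2KO tags and 0 of 5228 in WT, which allows a share of up to 0.0574% there, and their number did not pass the test (adjusted p = 0.0618). They held 57.4% of the CCR2KO reads of Igha. Another 27.4% lay in interstitial macrophage-like cells, where 1 cell of tag A0307 held 19432 of 19476 Igha reads. At least 1 Igha read was also found in 23 of 42 and 47 of 68 alveolar macrophage-like cells of CCR2KO tags A0307 and A0308. The source of these reads was not tested. Interstitial macrophage-like cells also held 79.4% of the CCR2KO reads of Iglc1, a light chain whose near-identical copies may share reads. In tag A0307 1 of these cells held 9815 of 9844 Iglc1 reads. Iglc1 was at 2.13, 4.82 and 1.44 CPM against 187 and 23.2 CPM (log2 change 5.23, adjusted p = 0.0255), a call that held only without CCR2KO tag A0308.

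Of 10 mesothelial genes 3 were higher, Lrrn4, Muc16 and Krt8, and all 10 had positive log2 changes (median 1.89). With WT tag A0309 or either CCR2KO tag left out, 1 was called. Muc16, a surface mucin of the pleura, had 0 reads in the WT tags and 95 in the CCR2KO tags, at 1.55 and 0.0852 CPM. Against a floor of 3 reads over the WT tags it was at least 50.9-fold higher, and its adjusted p was 0.0867 without CCR2KO tag A0307. Lrrn4 was at 0.175, 1.31 and 0.280 CPM against 4.71 and 9.13 CPM (log2 change 3.54, adjusted p = 0.0127), a call lost without CCR2KO tag A0308 (0.0866) or WT tag A0309 (0.0611). Mesothelial-like cells held 94.7% of the CCR2KO reads of Lrrn4 and 97.9% of those of Muc16. Of the CCR2KO reads of Krt8 66.8% lay in alveolar type 1-like cells.

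Lists with no called member over all cells included those of T cells (12 tested, median log2 change 0.43), cytotoxic lymphocytes (13, median 0.49), B cells (10, median 0.76), basement membrane (18, median 0.20), contractile proteins (12, median 0.10) and the cell cycle (20, median 0.08). All 10 B cell genes had positive log2 changes, between 0.24 and 1.01. Of 16 immediate early genes, which rise when tissue is dissociated, Nr4a1 was the 1 called. Of 16 endothelial genes only Tie1 was called (log2 change -0.57, adjusted p = 0.0364), and its call held only without CCR2KO tag A0307. Of 13 mitochondrially encoded genes 4 were higher and 1 lower, with changes between -0.31 for MT-Nd3 and 0.19 for MT-Co1. The higher ones numbered 1 without CCR2KO tag A0307 or WT tag A0309 and 2 without WT tag A0308.

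Within single populations few genes passed the test. Monocyte-like cells gave 13 of 12553 genes (0.104%), 3 higher (0.0239%) and 10 lower (0.0797%), from 15 and 29 CCR2KO cells, and the median log2 change over all genes was -1.08. Single changes in these cells stand against that shift. On simulated data this fit recovered 0% of 4-fold changes in monocyte-like and 5% in interstitial macrophage-like cells. Ccr2 in monocyte-like cells was at 740.4, 715 and 793 CPM in WT and 67.5 and 137.6 CPM in CCR2KO, apart in every tag but not called (log2 change -2.86, adjusted p = 0.358). Of 10 nonclassical monocyte genes 1 was higher, with a median log2 change of 1.49, while 10 classical ones had a median of -1.73 with none called. The population has markers of both kinds of monocyte, and whether their mix differed between genotypes was not tested. The higher nonclassical gene was Spn, which encodes CD43, a surface marker of nonclassical monocytes. Spn stood at 36.5, 58.5 and 74.7 CPM against 636 and 340.04 CPM (log2 change 3.11, adjusted p = 0.0391), and its call held only without CCR2KO tag A0308. Cd36, a lipid scavenger receptor, stood at 114, 49.1 and 120.1 CPM against 587 and 845 CPM (log2 change 2.92, adjusted p = 0.0133), and was called with either CCR2KO tag left out but with no WT tag left out. Retnla was also called higher, though among the fits with 1 tag left out only without CCR2KO tag A0307, and 1 of the 29 cells of CCR2KO tag A0308 held 4718 of its 4772 reads there. The number of genes called was 3 without WT tag A0308 and 75 without CCR2KO tag A0308.

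Interstitial macrophage-like cells gave 32 of 13343 genes (0.24%), 4 higher (0.03%) and 28 lower (0.21%), from 23 and 15 CCR2KO cells. Ccr2 stood there at 146, 302.1 and 200.1 CPM in WT and had no read in CCR2KO. Against a floor of 3 reads over the CCR2KO tags it was at least 187-fold lower, and it was called with any tag left out (adjusted p = 0.00130 with all 5). Irf7 stood at 139, 57.7 and 65.2 CPM against 1.36 and 2.59 CPM (log2 change -5.48, adjusted p = 0.00421), also called with any tag left out. The CCR2 ligand gene Ccl2 was at 1357, 792 and 981 CPM in WT and 2304 and 2618 CPM in CCR2KO, and Ccl7 at 1219, 603 and 1192 CPM against 1612 and 3299 CPM. Neither gene overlapped, and neither passed the test (log2 change 1.24, adjusted p = 0.0999 for Ccl2, and 1.29 and 0.159 for Ccl7). Both were chosen after their values were seen, and the share of genes without overlap in this population is not given. Of the 4 ligand genes tested there 0 were called, with a median log2 change of 1.25 beside -0.32 over all genes. The number of genes called here was 4 without WT tag A0307 and 223 without CCR2KO tag A0307.

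Alveolar macrophage-like cells gave 6 of 14396 genes (0.0417%), 2 higher (0.0139%) and 4 lower (0.0278%). Alveolar type 2-like cells gave 3 of 15177 (0.0198%), 2 higher (0.0132%) and 1 lower (0.00659%). In alveolar macrophage-like cells Tfec, a transcription factor related to TFEB, was at 151, 126 and 207 CPM in WT and 428 and 303.25 CPM in CCR2KO (log2 change 1.18, adjusted p = 0.0390), a call lost without CCR2KO tag A0307 (0.344), WT tag A0307 (0.108) or WT tag A0308 (0.123). Igha was called higher in both populations, and in alveolar macrophage-like cells 1 cell of CCR2KO tag A0308 held 6887 of 7018 reads, and without that tag the call in these cells was lost (adjusted p = 0.107). In alveolar type 2-like cells Megf6 was at 0.413, 0.471 and 0.501 CPM against 34.5 and 15.9 CPM (log2 change 5.72, adjusted p = 0.0134). Its mean lay below the 50 CPM of the naming rule, and its WT level was close to 0. With any 1 WT tag left out, neither Megf6 nor Igha was called in alveolar type 2-like cells. Alveolar fibroblast-like cells gave 0 of 13850 genes (0.0%) by edgeR, 500 at an unadjusted p under 0.05 and 35 by DESeq2. The Mmp12 Gpnmb macrophage-like population could not be tested, since its CCR2KO tags held 1 and 6 cells.

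The genotype difference of the third block was also tested against the mean difference of the first and second blocks (A0301 to A0303 and A0304 to A0306). It differed for 3 of 22389 genes (0.0134%) and for 4 of 27 populations (14.8%). Mmp3, stromelysin-1 of fibroblasts, averaged 65.4 CPM in WT and 133 CPM in CCR2KO in the first block, and 50.2 and 85.8 CPM in the second. In the third block it stood at 143.7, 128.8 and 143.1 CPM in WT and 83.5 and 97.4 CPM in CCR2KO, the opposite order. The difference between blocks was -1.52 on the log2 scale (SE 0.22, adjusted p = 0.0359), and the fall within the third block alone was not called (log2 change -0.61, adjusted p = 0.0856). Vegfc, the lymphatic growth factor, also turned, from 16.3 against 26.1 CPM and 20.9 against 34.4 CPM to 41.5, 43.6 and 36.8 CPM in WT and 28.4 and 28.5 CPM in CCR2KO. Its block difference was -1.21 (SE 0.16, adjusted p = 0.0319). Within the third block alone Vegfc was called lower by edgeR (log2 change -0.51, adjusted p = 0.0454). Pi15 was higher in CCR2KO in each block, by less in the third (block difference -0.76, SE 0.11, adjusted p = 0.0359). None of these 3 gene differences was called without WT tag A0308 or either CCR2KO tag, and without WT tag A0309 only that of Vegfc was.

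Neutrophil-like cells turned in the same way. They averaged 3.46% in WT and 6.19% in CCR2KO in the first block, 4.80% and 10.9% in the second, and 9.19% and 5.99% in the third (block difference -1.63, SE 0.28, adjusted p = 1.10e-05). That call held with any of the 5 tags of the third block left out. Fits without a tag of the first or second block were not run. B cell-like cells were 11.0% and 9.73%, then 6.43% and 6.33%, then 3.59% and 6.51% (block difference 0.96, SE 0.28, adjusted p = 0.0107). Natural killer cell-like cells were 2.402% and 1.47%, then 2.60% and 1.62%, then 1.68% and 2.43% (block difference 1.24, SE 0.36, adjusted p = 0.0107). Cluster 15 was higher in CCR2KO in each block, 0.641% against 1.83%, 0.909% against 3.55% and 3.02% against 4.92% (block difference -1.03, SE 0.35, adjusted p = 0.0299). Without CCR2KO tag A0308 the differences for B cells, natural killer cells and cluster 15 had adjusted p of 0.249, 0.0625 and 0.330.

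**Figure D5:**
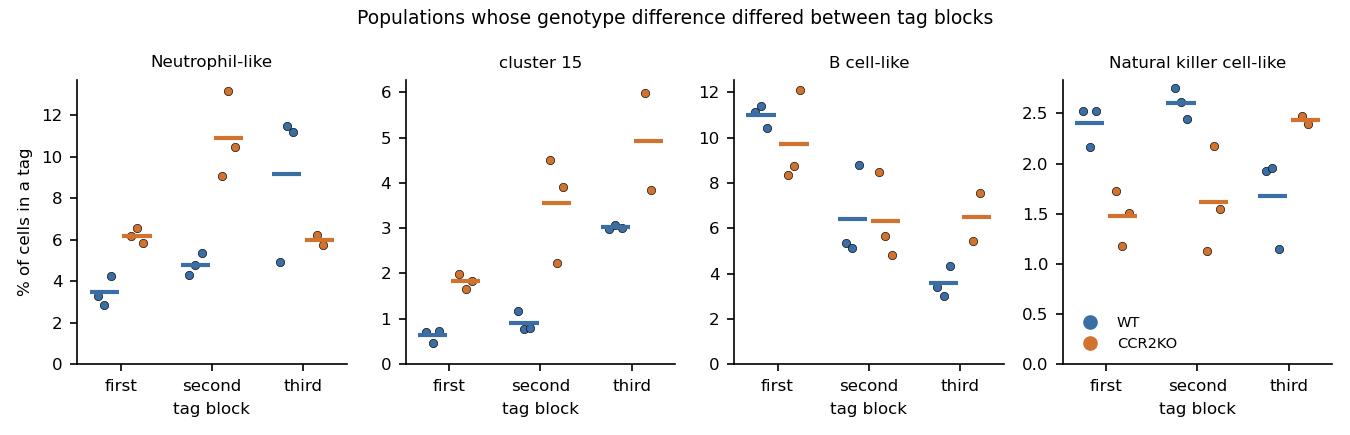
Share of cells per tag (vertical axis, percent) in each tag block for the 4 populations whose genotype difference differed between blocks; points are tags and bars are means. Neutrophil-like cells average 3.46% in WT and 6.19% in CCR2KO in the first block and 9.19% and 5.99% in the third.

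Isg15, Sftpc and C3 kept their direction over the blocks, and a block difference was not called for them. Isg15 averaged 173 CPM in WT and 70.7 CPM in CCR2KO in the first block and 188 and 43.5 CPM in the second. Sftpc averaged 12228 and 22784 CPM, then 7750 and 14819 CPM. C3 averaged 500.5 and 956 CPM, then 347 and 580 CPM. Called genes that did not keep their direction included Vegfc, given above, and Arg1, Pf4 and Ccl4. Such genes were not counted over all calls. Arg1 averaged 15.2 CPM in WT and 24.2 CPM in CCR2KO in the first block and 110.7 and 56.8 CPM in the second, and its block difference of -2.35 was not called (adjusted p = 0.280). Pf4, platelet factor 4, averaged 59.0 CPM in WT and 85.5 CPM in CCR2KO in the first block and 57.3 and 78.6 CPM in the second, against 102 and 47.6 CPM in the third (block difference -1.60, adjusted p = 0.138). Ccl4 averaged 214 and 238 CPM, then 151 and 194 CPM, then 171 and 100.6 CPM (block difference -1.02, adjusted p = 0.131).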

How the data were processed

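Lung cells were profiled on a microwell platform (BD Rhapsody), 1 library per genotype. The authors deposited whole-number counts per gene and cell, not normalized, treated here as reads because the handling of molecular identifiers is not given in the sources used here; intervals and floors cover counting error only. The build is GRCm38 and the listed tools are Bowtie2 2.4.2, cutadapt 2.10 and R 3.6.3, per the submitters' processing notes; strand use in counting is not given there. Columns named doublet and 2 columns with no tag were left out.

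CPM use TMM-adjusted totals. Genes were tested with edgeR 4.0.16 (quasi-likelihood, filterByExpr, TMM, Benjamini-Hochberg at 0.05) on all 17 tags in 6 groups of genotype by block, with 11 residual degrees of freedom. Each standard error (SE) is the size of the change over the square root of F. A tag entered a population with at least 10 cells. Clustering used Scanpy 1.11.5 (2000 variable genes, 40 components, 20 neighbours, Leiden resolution 1.5) on the cells of all 3 blocks, with Ccr2 left out, after Scrublet doublets were removed, which left 5228 WT and 3413 CCR2KO cells of the third block. A mean doublet score above 0.12, a limit chosen after the data were seen, left cluster 26 unnamed as mixed, and it was counted among the 27 populations. Names needed 3 markers among 100 leading genes and a margin of 1.5. Where the best and the next match were of the same family, a cluster could take the family name without that margin. Monocyte-like cells were named in this way.

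Named genes were Ccr2, the 12 called genes with the largest change in each direction (mean of at least 20 CPM, no overlap), and up to 3 called members per list and direction; within populations, 6 per direction at 50 CPM; for the block difference, 6 per direction. Ly6c2, C2, Scgb1a1, Lyz1, Megf6, the interstitial macrophage chemokines and the genes of the closing section were chosen after their values were seen. Some genes that the lists and rules cover are counted but not reported here. The members and lists were chosen with earlier results of these data known. On simulated data the edgeR step recovered 39% of 2-fold and 53% of 4-fold changes over all cells, 6% and 24% in alveolar macrophage-like, 3% and 11% in alveolar type 2-like, and 2% and 9% in alveolar fibroblast-like cells. Other tools were Python 3.11.15, R 4.3.3 and DESeq2 1.42.0. Alternatives covered normalization, filters, tags, cell filters, depth and clustering.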

Additional observations from a re-analysis of the deposited data

Results flagged for a closer look

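A test of the difference itself picked out 7 results whose genotype effect in the third block differed from the mean effect in the first and second blocks. On the log2 scale the difference was -1.63 for the share of neutrophil-like cells, 0.96 for B cell-like cells, 1.24 for natural killer cell-like cells and -1.03 for cluster 15. Among genes over all cells it was -1.52 for Mmp3, -1.21 for Vegfc and -0.76 for Pi15. Neutrophil-like cells, Mmp3 and Vegfc were higher in CCR2KO than in WT on average in the first and second blocks and lower on average in the third. For neutrophil-like cells WT tag A0307 of the third block lay below both CCR2KO tags. The fall of Mmp3 within the third block alone was not called. Because the day of a tag is not given, whether blocks differ in day was not tested. Groups of 3 and 2 tags are too small for a test of single outlying tags.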

How the results depend on the processing

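Calls over all cells (871) rose to 1677 with DESeq2 (870 shared) and fell to 232 with only the 5 tags of the block, to 395 with cells thinned to 5000 reads, to 403 and 188 with the populations left out that were added after seeing the data (without monocyte-like and Mmp12 Gpnmb macrophage-like cells, then also without alveolar type 2-like, plasma cell-like and mesothelial-like cells), and lay between 293 and 761 with 1 tag left out. A replicate block by tag number, 2 against 2 tags, gave 43 genes and 2 populations. It also gave 16 genes in interstitial macrophage-like, 2 in alveolar macrophage-like and 0 in alveolar type 2-like cells. The sources used here do not say that same-numbered tags share more than a number. Correlations of their deviations from the group means were 0.0343 and -0.0027. With 2 CCR2KO tags the deviations mirror each other, so these values cannot decide whether tags are paired. The 10 populations became 6 at resolution 0.8, 6 with the 5 tags and 5 to 8 with 1 tag left out. Their 4 block differences became 1 to 4. At resolution 0.8 monocyte-like and Mmp12 Gpnmb macrophage-like cells were not separate populations. The 3 block-difference genes became 179 with DESeq2, 0 with thinned cells and 0 to 9 with 1 tag left out. In each fit with a tag left out, that tag was from the third block.

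Within monocyte-like cells the 13 calls became 8 with RLE factors, 626 with DESeq2, 62 with no filter, 0 with the 5 tags, 3 to 75 with 1 tag left out and 1 with WT cells drawn down in number (added after seeing the data). Interstitial macrophage-like cells (32) gave 17, 551, 188, 0 and 4 to 223 in the same order, without the last. Alveolar macrophage-like cells (6) gave 330 with DESeq2, 21 with no filter, 0 with the 5 tags and 3 to 114 with 1 tag left out. Alveolar type 2-like cells (3) gave 5 with RLE factors, 103 with DESeq2, 0 with the 5 tags and 1 to 2 with 1 tag left out. Alveolar fibroblast-like cells (0) gave 35 with DESeq2 and 18 with no filter. The Mmp12 Gpnmb macrophage-like class could not be fitted. The ratio of detected genes lay between 0.859 and 0.890 with 1 tag left out. Ccr2 over all cells was called in every alternative.

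Changes of sign: Stab1 to 0.17 with thinned cells; large vessel endothelium to -0.27 at resolution 0.8; airway epithelium to -0.00975 clustered without called genes and -0.17 with the replicate block; alveolar fibroblasts to 0.19 without called genes; alveolar macrophages to 0.43 with the replicate block. With 1 tag left out, the log2 changes of these populations lay on both sides of 0: large vessel endothelium -0.26 to 0.37, airway epithelium -0.17 to 0.33, alveolar fibroblasts -0.35 to 0.22, alveolar macrophages -0.32 to 0.45, lymphatic endothelium -0.47 to 0.0859, activated fibroblasts -0.30 to 0.0753, adventitial fibroblasts -0.27 to 0.55 and plasmacytoid dendritic cells -0.83 to 2.41. The populations among these were uncalled to begin with, and the cause was not tested. At 15 to 29 monocyte-like cells per CCR2KO tag, cell number limits what can be called there.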

Other observations

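Some ribosomal transcripts, chosen after their values were seen, were lower in both CCR2KO tags than in every WT tag. Ribosomal genes were not counted as a group. Rn45s, the ribosomal RNA precursor, stood at 4920.0, 4933 and 4807 CPM in WT and 3407 and 3223 CPM in CCR2KO (log2 change -0.56, adjusted p = 6.31e-07 by edgeR). Rps29, a small-subunit protein gene, stood at 1640.2, 1585 and 1592 CPM against 884 and 918 CPM (log2 change -0.83, adjusted p = 2.97e-08). Rps28 (log2 change -0.63), Rpl38 (-0.63) and Rpl41 (-0.43) were lower too, as was Rn4.5s, a short noncoding RNA of rodents, at 46.7, 47.9 and 40.6 CPM against 9.52 and 10.3 CPM (log2 change -2.18, adjusted p = 2.98e-07). Within populations Rn45s fell by 1.44 on the log2 scale in monocyte-like cells and Rps29 by 0.83 in alveolar macrophage-like cells. The median log2 changes over all genes tested there were -1.08 and -0.04. These differences move with genotype and cartridge alike.

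Some genes of the circadian clock differed. Nr1d1, a repressor of the clock, stood at 18.9, 12.05 and 10.2 CPM in WT and 41.3 and 31.3 CPM in CCR2KO (log2 change 1.41, adjusted p = 0.0111 by edgeR, 0.129 without CCR2KO tag A0307 and 0.0553 without WT tag A0309). Per2 was higher (log2 change 1.18, adjusted p = 0.0358) and Bhlhe41 lower (-1.15, adjusted p = 0.0145). Nr1d2, Per1, Per3, Dbp and Arntl were not called.

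Haemoglobin transcripts, which mark red cells, varied among WT tags. Hbb-bs stood at 2.08, 122 and 295 CPM in WT and 2.85 and 2.51 CPM in CCR2KO, with overlap and no call.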
